A study of Homo sapiens with 4 samples.

Results

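The S100 genes encode small calcium-binding proteins, and 10 of them were followed here in PC3 cells: S100A2, S100A3, S100A4, S100A6, S100A7, S100A8, S100A9, S100A10, S100A11 and S100P. They were chosen by name, S100P together with members of the family that lie in the epidermal differentiation locus, and the rule uses no measured value, although earlier results of these data were known when it was set. They are 10 of 19102 genes named on the array, and 11 of its 34127 features carry them, since S100A11 has 2.

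PC3 is an established line of metastatic prostate cancer cells. The cells were infected with lentivirus that carried an shRNA against ALKBH3, a DNA repair demethylase, or a control shRNA, which according to the methods targets GFP. All cells, controls included, had been infected and selected with puromycin, and RNA was taken 48 h or 96 h after selection. One-color Agilent arrays were used, 1 for each shRNA at each time, and precision is limited by this small number; which of several possible ALKBH3 shRNAs the cells received is not stated in the labels. Each shRNA is repeated only through its 2 time points, and the p-values of the main fit set the difference against the spread between them. An alternative fit pairs the arrays of a time point as a block. Its p-values set the difference between the shRNAs against how far it varies between the 2 time points. Both fits moderate the error of each gene toward the spread of all genes tested, so SE and p-values rest partly on other genes. For S100A2 the SE was 0.11 in the main fit and 0.029 in a t-test on its own values. The slide may go with the time point, and if so time and slide cannot be told apart.

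S100 proteins form pairs, and on binding calcium most of them open a surface that grips a target protein. Inside the cell their targets include annexins and cytoskeletal proteins, and outside the cell several act on the receptors AGER and TLR4. Many S100 genes stand side by side with genes of the skin barrier on chromosome 1, where the whole region is active in stratified epithelia, while S100P lies apart on chromosome 4.

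The promoters of 3 of the genes are shown because the measurements below turn on them. S100A2 and S100P were the genes whose difference between the shRNAs was largest against its error once the time points were matched, and S100A3 stands next to S100A2 and holds the same motif. The windows run from 250 bases before to 50 bases after a RefSeq start site on GRCh38.p14, and are written on the strand of the gene. Capitals mark TGANTCA, the letters bound by AP-1 (Jun and Fos dimers).

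S100A2, chr1:153565795-153566094, minus strand: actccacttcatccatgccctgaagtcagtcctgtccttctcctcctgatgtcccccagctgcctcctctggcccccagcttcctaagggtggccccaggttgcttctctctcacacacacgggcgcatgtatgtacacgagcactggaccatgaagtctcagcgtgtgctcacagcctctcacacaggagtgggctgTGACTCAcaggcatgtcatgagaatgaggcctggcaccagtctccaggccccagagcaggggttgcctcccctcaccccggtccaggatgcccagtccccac
S100A3, chr1:153549209-153549508, minus strand: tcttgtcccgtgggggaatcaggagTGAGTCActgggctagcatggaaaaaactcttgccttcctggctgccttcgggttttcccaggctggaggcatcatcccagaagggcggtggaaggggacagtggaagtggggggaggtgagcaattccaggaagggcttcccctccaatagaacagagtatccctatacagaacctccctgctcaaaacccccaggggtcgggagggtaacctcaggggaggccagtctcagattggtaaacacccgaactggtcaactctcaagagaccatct
S100P, chr4:6693628-6693927, plus strand: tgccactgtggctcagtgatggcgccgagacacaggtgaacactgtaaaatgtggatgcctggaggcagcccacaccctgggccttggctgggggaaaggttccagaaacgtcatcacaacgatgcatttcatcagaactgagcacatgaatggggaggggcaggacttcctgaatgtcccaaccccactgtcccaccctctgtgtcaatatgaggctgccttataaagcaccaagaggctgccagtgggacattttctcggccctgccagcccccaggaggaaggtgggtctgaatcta

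In the S100A2 window the AP-1 letters begin at -52, counting the start site as 0, and in the S100A3 window at -225. Of the 13 windows that RefSeq gives for the 10 genes these 2 hold the motif, and 7.71% of all 35116 windows do. A second S100A2 window, at a further start site, does not hold it. Further motifs were searched on both strands as well. TTGCNNCAA (C/EBP) is in none of the 13 windows and in 1.98% of all, and the interferon response element (TTTC, 2 bases of any kind, TTTC) is in none of the 13 and in 3.57% of all. A loose NF-kB motif (GGG, 5 bases of any kind, CC) is in 9 of the 13 and in 58.7% of all, and was absent from the S100P and S100A9 windows. A match is a description of letters, and binding was not measured here.

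ALKBH3 itself was lower on both ALKBH3 shRNA arrays, with a fitted log2 difference of -1.63 ± 0.12 (SE, 2 arrays per shRNA) for the feature that stands for the gene, and of -2.05 for a further one. On each array 67.0% to 70.9% of features were well above background, and the 75th percentile of intensity lay between 2150 and 2394. The 5 epithelial markers KRT8, KRT18, KRT19, EPCAM and CDH1 were well above background on all 4 arrays, whereas KLK3, a defining gene of luminal prostate cells, was on none. With ALKBH3 shRNA the 5 had a median difference of 0.03, and KRT8, KRT18 and KRT19 differed by 0.03, -0.07 and -0.18. EPCAM was higher by 0.98 with ALKBH3 shRNA (limma adjusted p = 0.418, and 0.0264 with the time point as a block). CDH1 was higher by 0.74 (limma adjusted p = 0.887, and 0.0472 with the block), and the fibroblast marker DCN by 0.65 (limma adjusted p = 0.348, and 0.0426 with the block). DCN was dim, with log2 signals from -5.93 to -5.18 relative to the 75th percentile. The dimmest signals called well above background lay between -6.85 and -6.50. Of 4 fibroblast genes, 2 were not well above background on any array. EPCAM, CDH1 and DCN thus passed the same blocked fit as S100A2 and S100P below, and their part in the results for the S100 genes was not tested. Signals below are log2 intensities relative to the 75th percentile of the array, differences are ALKBH3 shRNA minus control shRNA, and levels are compared within a gene only.

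Of the 10 S100 genes, 8 were well above background on all 4 arrays. S100A9 was on 3 arrays and S100A8 on none, so 9 genes were tested, S100A9 only because both ALKBH3 shRNA arrays were above background. With the cutoffs named by the study, a 2-fold difference with unadjusted p under 0.05, 0 of the 9 were called, beside 1.04% of all 14556 genes called higher and 0.234% called lower. In limma 0 of the 9 passed an adjusted p of 0.05, as did 0 genes in all (0%). At an unadjusted p under 0.05 stood 1 of the 9, S100A2, beside 8.33% of all genes. The median difference of the 9 was 0.10, with 5 higher and 4 lower, and that of all genes was -0.0030. Without S100A9 the median was 0.05.

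**Figure D1:**
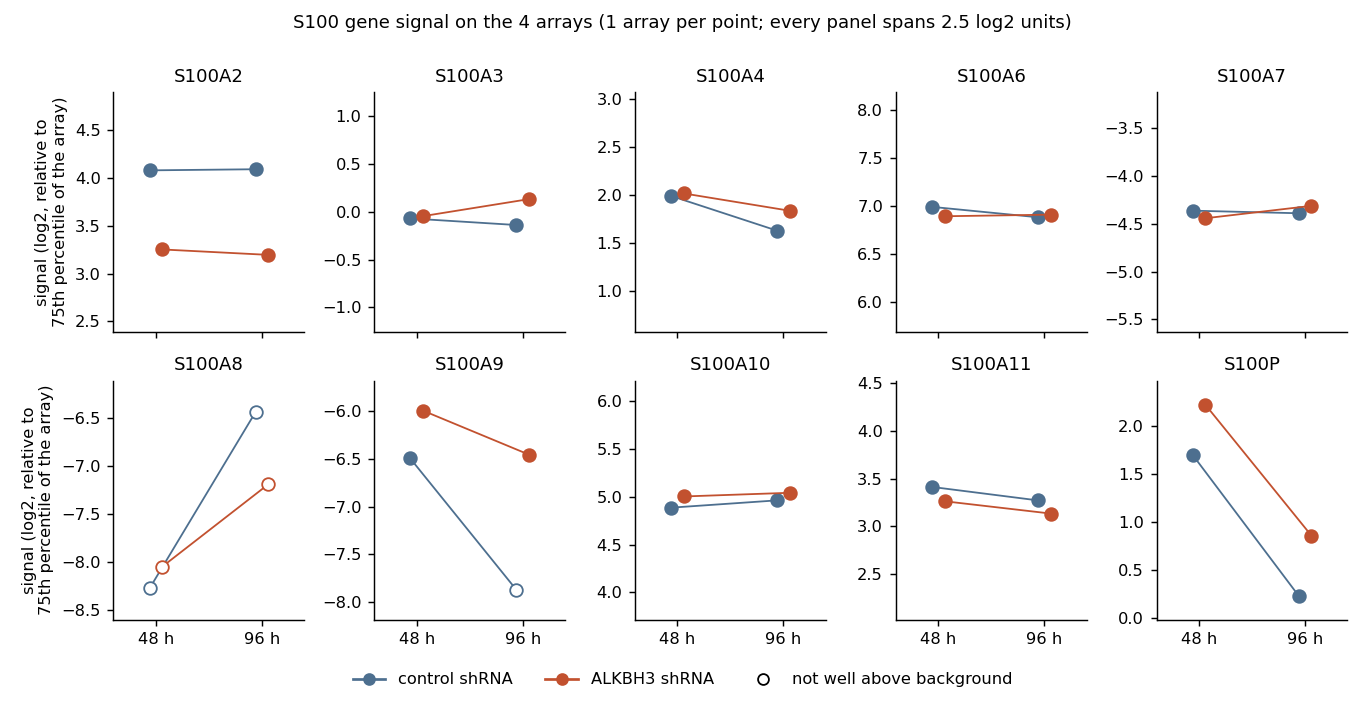
Signal of each S100 gene (vertical axis, log2 relative to the 75th percentile of the array) at 48 h and 96 h, with 1 array per point, blue for control and red for ALKBH3 shRNA, and open points where the feature was not well above background. S100A2 is lower and S100P higher with ALKBH3 shRNA at both time points, S100P is lower at 96 h with either shRNA, and all S100A8 points are open.

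S100A2, a mainly nuclear S100 protein of epithelial cells, was lower with ALKBH3 shRNA at both time points. Its signal at 48 h was 4.08 with control and 3.25 with ALKBH3 shRNA. At 96 h the signal was 4.09 with control and 3.19 with ALKBH3 shRNA. Arrays of the same shRNA nearly coincided and the shRNAs did not overlap. The difference was -0.83 at 48 h and -0.90 at 96 h. The fitted difference was -0.86 ± 0.11 (SE, 2 arrays per shRNA, 95% interval -1.16 to -0.57), or 1.82-fold lower. The unadjusted limma p was 0.000918 and the limma adjusted p was 0.330. With the time point as a block, which pairs the 2 arrays of a time point, the limma adjusted p was 0.0294, and 1.5% of all genes passed as lower in that fit. At a 1.5-fold cutoff S100A2 was called lower, beside 1.28% of all genes. In RNA of a whole culture, fewer cells with a transcript and less of it per cell cannot be told apart.

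S100A3, the neighbor of S100A2 and best known from the hair cuticle, differed by far less. Its signal was -0.07 and -0.05 at 48 h with control and ALKBH3 shRNA. At 96 h it was -0.14 and 0.13. Both ALKBH3 shRNA arrays lay above both controls, by a margin smaller than the difference between the 2 ALKBH3 shRNA arrays. The fit gave 0.15 ± 0.13 (SE, 95% interval -0.19 to 0.48, limma adjusted p = 0.883).

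S100P, a ligand of AGER that also binds ezrin, was higher with ALKBH3 shRNA within each time point, and lower at 96 h than at 48 h with either shRNA. Its signal at 48 h was 1.70 with control and 2.23 with ALKBH3 shRNA. At 96 h it was 0.23 and 0.86. Taken over both time points the shRNAs overlapped, since the ALKBH3 shRNA array at 96 h lay below the control array at 48 h. The difference was 0.52 at 48 h and 0.63 at 96 h. The fitted difference was 0.58 ± 0.68 (SE, 95% interval -1.23 to 2.39, limma adjusted p = 0.928), a spread that holds the gap between time points. With the time point as a block the SE was 0.08 and the limma adjusted p was 0.0439, and 2.96% of all genes passed as higher in that fit. Without the control array at 96 h, or without the ALKBH3 shRNA array at 48 h, the unblocked difference turned to -0.16 or -0.11. Of the 9 tested genes, S100A2 and S100P were the 2 that passed the blocked fit.

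**Figure D2:**
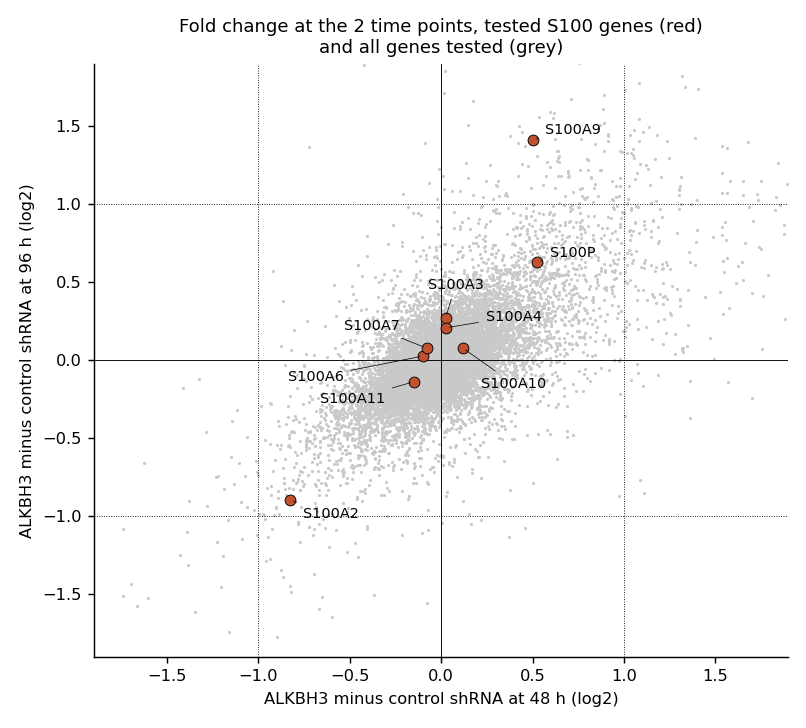
Difference between ALKBH3 and control shRNA (log2) at 48 h (horizontal axis) and at 96 h (vertical axis), for the 9 tested S100 genes (red, labeled) and all genes tested (gray points; 82 lie outside the axes), with dotted lines at 2-fold. S100A2 lies at -0.83 and -0.90, S100P at 0.52 and 0.63, and S100A9 passes the dotted line at 96 h with a control signal that was not well above background.

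S100A8 and S100A9 pair to form calprotectin, the abundant protein of neutrophils and monocytes that binds zinc and manganese and acts on TLR4, and both were at or near background in these cells. S100A9 had a signal of -6.50 with control and -6.00 with ALKBH3 shRNA at 48 h. At 96 h it had -7.87 with control, where it was not well above background, and -6.46 with ALKBH3 shRNA. Both ALKBH3 shRNA arrays lay above both controls, an order that the filter favors, since the gene entered the test through the ALKBH3 shRNA arrays. The difference was 0.50 at 48 h. At 96 h the measured difference was 1.41, against a control that was not well above background. With the control set at the dimmest signal called well above background on that array, S100A9 came to 1.03-fold higher. S100A8, at -6.43 on that array, was brighter than this signal and yet not called so, which makes 1.03-fold no lower limit. The fitted difference was 0.96 ± 0.50 (SE, 95% interval -0.36 to 2.27), with a limma adjusted p of 0.728, and of 0.103 with the time point as a block. The size rested on how dim spots were treated: the 96 h difference was 0.27 after normexp background correction and 0.52 in the normalized table of the authors. Without the control array at 48 h the fitted difference was 1.64 and passed the 2-fold cutoffs, but the control then rested on the 1 array at background, so that this is no measured size.

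S100A8 was not well above background on any array and was not tested. Its signals were -8.28 and -8.05 at 48 h and -6.43 and -7.19 at 96 h, with control and ALKBH3 shRNA. Both 96 h values were above both 48 h values, but all of them lie at background and no difference is read from them. Myeloid markers were looked up because myeloid cells are rich in both proteins. Of 6 such genes 5 had a feature, 3 were well above background on all 4 arrays, and their differences ran from -0.09 for PTPRC to 0.10 for ITGAM, with CD14 at -0.04. Their summed signal, as a multiple of the 75th percentile, was 0.213 and 0.216 at 48 h and 0.202 and 0.209 at 96 h, with control and ALKBH3 shRNA. CSF1R and FCGR3A, which enter this sum, were not above background on all arrays, and the part of myeloid cells in the S100A9 values was not tested.

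S100A7 (psoriasin), an antimicrobial protein of inflamed skin that binds COPS5, had nearly the same signal on all 4 arrays. It had 10 spots on each array, of which 9 were kept on the control array at 96 h. The means were -4.36 and -4.44 at 48 h with control and ALKBH3 shRNA. At 96 h they were -4.39 and -4.31. The SD over single spots of an array was between 0.170 and 0.201. The fit gave a difference of -0.00095, with an SE of 0.12 and a 95% interval from -0.31 to 0.31 (limma adjusted p = 0.999).

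S100A10, S100A11, S100A6 and S100A4 are known for their grip on annexins and the cytoskeleton. S100A10, which pairs with annexin A2 and also binds AHNAK, holds the open shape without calcium. Its signal was 4.89 and 5.002 at 48 h, and 4.96 and 5.04 at 96 h, with control and ALKBH3 shRNA. Both ALKBH3 shRNA arrays lay above both controls by a small margin. Its fitted difference came to 0.10 ± 0.11 (SE, 95% interval -0.20 to 0.40, limma adjusted p = 0.923).

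S100A11, a partner of annexin A1, had 2 features. The brighter one gave 3.41 and 3.26 at 48 h, and 3.27 and 3.14 at 96 h, with control and ALKBH3 shRNA. The other one gave 3.31 and 3.08 at 48 h, and 3.14 and 3.12 at 96 h. On either feature both ALKBH3 shRNA arrays lay below both controls, though on each the lower control and the higher ALKBH3 shRNA array were close. The fit gave -0.14 ± 0.13 for the brighter feature (SE, 95% interval -0.48 to 0.19, limma adjusted p = 0.890) and -0.13 for the other.

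S100A6 (calcyclin), which binds CACYBP, had a signal of 6.99 and 6.89 at 48 h with control and ALKBH3 shRNA. At 96 h it had 6.88 and 6.91, and no array was saturated. The order of the shRNAs turned between the time points. A difference of -0.04 ± 0.12 was fitted (SE, 95% interval -0.34 to 0.27, limma adjusted p = 0.985). S100A4 (metastasin), which binds the nonmuscle myosin heavy chain MYH9 and is linked to cell motility, had 1.99 and 2.02 at 48 h. At 96 h it had 1.63 and 1.84. The ALKBH3 shRNA array was the higher one at each time point, yet the shRNAs overlapped across them. The fit gave 0.12 ± 0.17 (SE, 95% interval -0.35 to 0.58, limma adjusted p = 0.949).

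Counted by groups that do not overlap, S100A3, S100A9 and S100A10 had both ALKBH3 shRNA arrays above both controls, 3 of 9 beside 17.4% of all genes, with the place of S100A9 partly set by the filter. S100A2 and S100A11 had both below, 2 of 9 beside 19.1% of all genes. These shares were not tested against those of all genes. A 2-fold difference was measured for 0 of the 9 at 48 h, beside 2.17% of all genes. At 96 h it was measured for 1, S100A9, beside 1.89%, but the control was at background, so that no 2-fold difference is established there. The direction was the same at both time points for 7 of the 9, S100A6 and S100A7 being the exceptions.

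**Figure D3:**
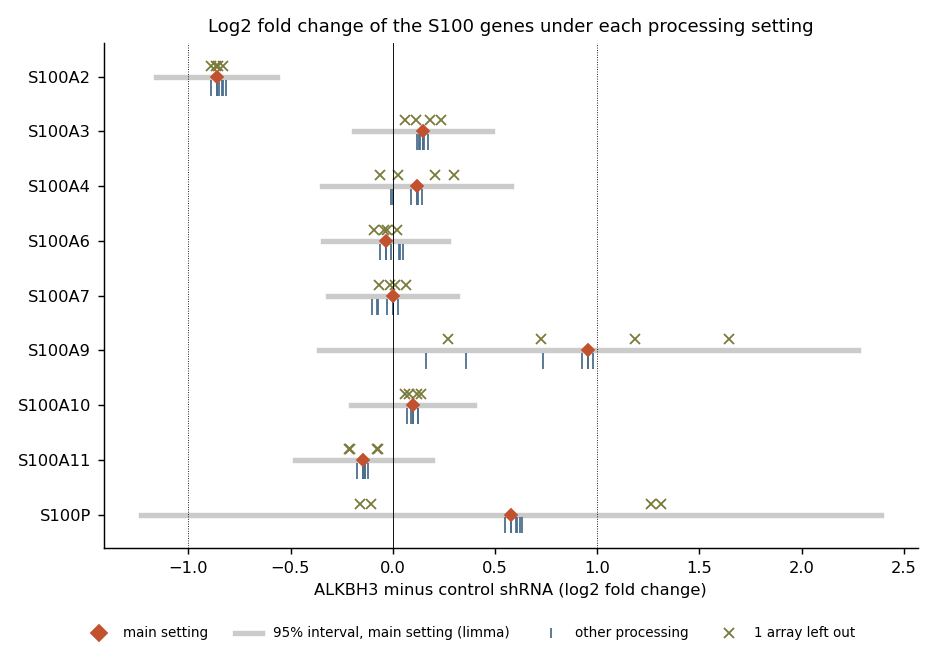
Fitted log2 difference between ALKBH3 and control shRNA (horizontal axis) of the 9 tested S100 genes, with red diamonds for the main setting, gray bars for its 95% interval, blue ticks for other processing and crosses for fits without 1 array; dotted lines mark 2-fold. S100A2 stays between -0.89 and -0.82 throughout, whereas S100A9 runs from 0.16 to 1.64 and S100P from -0.16 to 1.31.

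Between time points, S100P had the widest gap of the 9 genes. Its difference, 96 h minus 48 h, was -1.47 in control cells and -1.37 in ALKBH3 shRNA cells. S100A9 differed by -1.37 with control, where it reached background, and by -0.46 with ALKBH3 shRNA. The differences were at least 2-fold lower for 2 of the 9 with control, beside 0.989% of all genes, with S100A9 counted at its background value, and for 1 of the 9 with ALKBH3 shRNA, beside 1.9%. S100A2 had nearly the same signal at both time points, with differences of 0.01 and -0.06. S100A14, a gene of the same locus that was chosen after its values were seen, differed by -1.64 with either shRNA. These are differences of 1 array against 1 array without a test. If the slide goes with the time point, they cannot be told apart from a difference between slides.

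**Figure D4:**
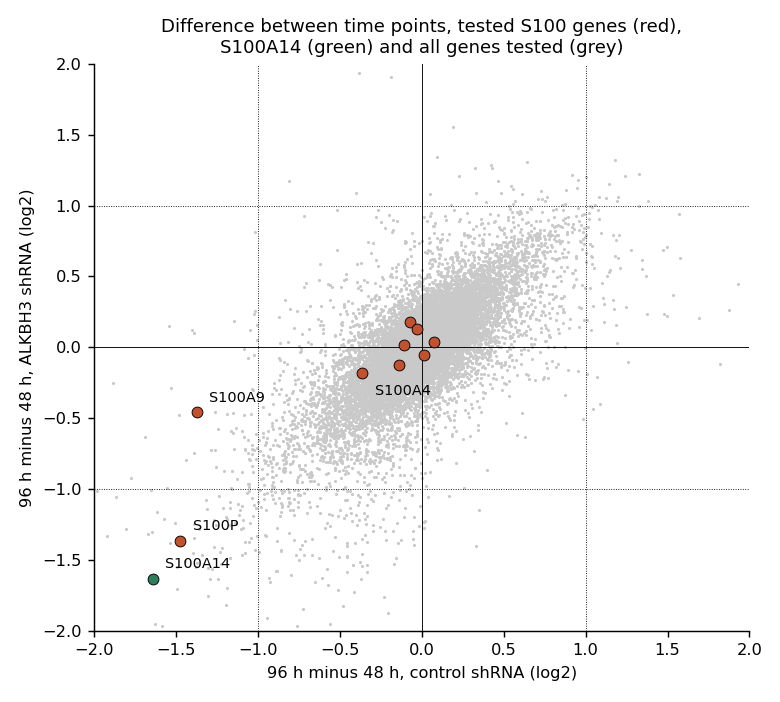
Difference between 96 h and 48 h (log2) with control shRNA (horizontal axis) and with ALKBH3 shRNA (vertical axis), for the 9 tested S100 genes (red), S100A14 (green) and all genes tested (gray; 34 lie outside the axes), with dotted lines at 2-fold. S100P lies at -1.47 and -1.37, S100A14 at -1.64 and -1.64, and S100A9, whose control was at background at 96 h, past the line with control shRNA alone.

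Further S100 genes were looked up as a list of 10, of which 5 were tested and 5 were not well above background on any array. Of the 5 tested, 1 was higher and 4 lower, with a median difference of -0.11. S100A13, which takes part in the release of FGF1 from cells, was the lowest. Its signal was 5.13 and 4.29 at 48 h, and 4.82 and 4.27 at 96 h, with control and ALKBH3 shRNA. As for S100A2, both ALKBH3 shRNA arrays lay below both controls. The fit gave -0.70 ± 0.15 (SE, limma adjusted p = 0.387), and with the time point as a block the limma adjusted p was 0.047. S100A5 was the highest of the list, at 0.02.

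Proteins known to bind S100 proteins, or to receive them at the cell surface, were measured as a list of 13, and 11 were tested. Of these 7 were higher and 4 lower, with a median difference of 0.09, and 0 had an unadjusted limma p under 0.05. AHNAK, a target of S100A10, was the lowest at -0.32, and the annexins that pair with S100A11 and S100A10, ANXA1 and ANXA2, differed by 0.27 and 0.14. TLR4 and CD36, a receptor and a fatty acid transporter that calprotectin is tied to, were not tested because neither was well above background.

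Along the epidermal differentiation locus, 33 genes were tested from S100A10 at one end to S100A1 at the other, with a median difference of 0.10. S100A2 and S100A13 were the 2 of the 33 with an unadjusted limma p under 0.05, beside 8.33% of all genes. The 8 of the S100 genes followed here that were tested in this stretch had a median of 0.05, and the 25 other genes 0.11. A list of other genes of the locus, mostly of the skin barrier, had 42 genes with a feature. Of these 19 were tested, 16 of them higher and 3 lower, with a median of 0.18. Of all 14556 genes 7186 were higher and 7370 lower, and the shares were not compared by a test. The 19 genes ran from -0.05 for LCE1E to 0.70 for SPRR1B, and 0 had an unadjusted limma p under 0.05. Not all of the 19 were well above background on all 4 arrays. SPRR1B was on 3 only, and so entered the test through 1 shRNA. The genes between S100A2 and S100A13, S100A16 and S100A14, differed by -0.26 and -0.11, and those on the other side of S100A2, S100A3 and S100A4, by 0.15 and 0.12.

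**Figure D5:**
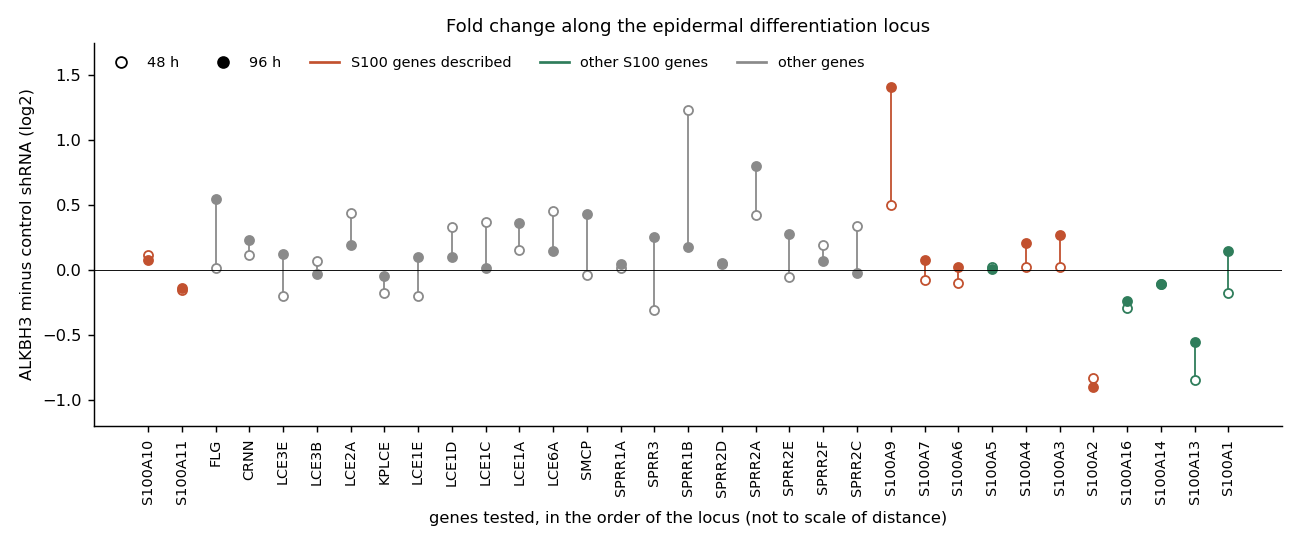
Difference between ALKBH3 and control shRNA (vertical axis, log2) at 48 h (open) and 96 h (filled) for the 33 tested genes of the epidermal differentiation locus in their order on chromosome 1 (horizontal axis, not to scale), in red for the S100 genes followed here, green for other S100 genes and gray for the rest. S100A2 and S100A13 lie below the genes next to them at both time points.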

How the data were processed

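RNA of 4 PC3 cultures was hybridized to Agilent single-color arrays. The authors deposited spot intensity values that Agilent Feature Extraction (version 10.7.3.1 per the file headers) had background-subtracted, detrended and floored on each array alone, and a table of log2 intensities normalized between the arrays with limma, which served as an alternative. Non-uniform and outlier spots (180 to 379 per array) were removed. Log2 intensities were centered on the 75th percentile of each array, and spots of a feature were averaged. A feature was well above background where the share of its spots marked so by the software was at least 0.5, and was tested if it was so on both arrays of an shRNA. A gene stands by its tested feature of highest mean signal. Features were named by matching the accession with gene records of RefSeq on GRCh38.p14 (19102 genes), since the gene name column the rule refers to was not used here. These records also gave the order of genes.

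The shRNAs were compared without covariate by lmFit and eBayes (limma 3.58.1 in R 4.3.3, with files read by data.table version 1.17.8), and p-values were adjusted by Benjamini-Hochberg over all 14556 genes. Time points pair the arrays by their labels: deviations of the 48 h arrays from the group means correlated at r = 0.703 across 14556 genes, which are not independent replicates. All 10 S100 genes are named, and of other lists those past the cutoffs or at either end of the list, with further genes given as values; 2 genes of these lists are not reported here. The members and lists were chosen with earlier results of these data known. Of markers of other cell types, KRT10 (-0.12) was tested as the 1 squamous marker of 5, and fibroblast and endothelial genes ran from -0.59 (PECAM1) to 0.71 (COL1A1).

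The steps were tested on simulated data with 200 of 14556 genes changed. Each was changed by more than 2-fold, which is more than any fitted difference of the S100 genes. In the fit without a block, simulated without a time effect, the cutoffs called 98% of these and 85 unchanged genes. The adjusted p passed 81% and 2. These shares do not tell how often smaller differences, or differences in data with a time effect, would be found without a block. The blocked fit, simulated with a time effect, gave 100%, 109, 59% and 3. The noise of both simulations was drawn from the fit without a block, whose spread holds the gap between time points. The blocked shares thus do not tell how the blocked fit does on the measured data. Alternatives were normexp background correction of the median spot signal (offset 50), quantile normalization, median centering, the percentile over features above background on all arrays, the authors' values, other filters and ways to combine features, the methods' t-test, a cutoff of 1.5-fold, the time point as a replicate block and leaving out each array. ChIP-seq data and the sequences of array features and proteins were not used here.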

Additional observations from a re-analysis of the deposited data

Results flagged for a closer look

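S100A6 and S100A7 differed between the shRNAs in opposite directions at the 2 time points. For S100A6 the difference was -0.10 at 48 h and 0.03 at 96 h, a gap of 0.126 on the log2 scale. For S100A7 it was -0.08 and 0.08, a gap of 0.157. With 1 array per shRNA and time point the gaps were not tested.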

How the results depend on the processing

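Over the alternatives for single S100 genes, 177 values kept their direction and their side of the threshold or stayed within the spread, 11 reversed, 2 passed a threshold that the main value did not, and 13 values moved. The filters, the block, the methods' t-test and the 1.5-fold cutoff leave the fitted difference of these genes as it was. So does a fit over features in place of genes, and so does the mean over features for all but S100A11 (-0.136). For these settings the agreement in direction was fixed in advance. S100A2 was lower in every fit run, and it was past an adjusted p of 0.05 with the time point as a replicate block, as S100P was, a count of 2 in place of 0. S100A2 was also the 1 gene called lower with a 1.5-fold cutoff. Leaving out arrays, 0 to 1 genes were called higher, the 1 being S100A9 without the control array at 48 h, when its control is the array at background. S100A9 was not at least 2-fold at 96 h with normexp correction or with the authors' values (0 genes in place of 1), and under both 1 gene in place of 2 was at least 2-fold lower at 96 h with control shRNA. Reversed values were those of S100A4, S100A6 and S100A7, near 0, and of S100P. S100A4 gave -0.0066 with normexp correction. S100A6 gave 0.0312 with normexp, 0.0487 with quantile normalization and 0.0367 with the authors' values. S100A7 gave 0.0236 with the percentile of features above background on all arrays. Leaving out 1 array gave -0.0644 to 0.30 for S100A4, -0.0899 to 0.0190 for S100A6, -0.0658 to 0.0639 for S100A7 and -0.16 to 1.31 for S100P, where the omitted array unbalances the time points. The median of the tested S100 genes was between -0.06 and 0.12. Over all genes, 151 were called higher and 34 lower, and the alternatives gave from 45 (the methods' t-test) to 415 (1.5-fold cutoff) higher and from 15 to 187 lower, with 649 past an adjusted p of 0.05 with the block and 0 otherwise. A filter on all 4 arrays gave no value for S100A9. The dim signals of S100A8 and S100A9 limit what can be read from them, and 2 arrays per shRNA limit the rest.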
